A study of Homo sapiens with 8 samples.

Results

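Immediate early genes are switched on by growth factors or stress without any new protein synthesis, and most of their mRNAs are destroyed soon after they are made. The 9 genes described here were chosen by name: FOS, JUN, JUNB, EGR1, IER2, IER3, MYC, KLF6 and ATF3. All 9 have a row in the deposited gene table, which holds 13471 genes. Transcription factors such as serum response factor and CREB drive their promoters, AU-rich stretches in the 3′ untranslated region (UTR) of many of them attract decay factors, and transcription from most genes falls when chromosomes condense in mitosis.

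RNA was sequenced from hTERT-RPE1, an established human line of retinal pigment epithelium that carries telomerase, in 4 groups of 2 libraries. The interphase groups spent 24 h in 2 mM thymidine, a block to DNA replication. The mitotic groups had the same 24 h of 2 mM thymidine, then 6 h of release, then a night in STLC, which arrests cells in mitosis by blocking the spindle motor Eg5. In each phase, one group was RNA without immunoprecipitation (IP) and the other was RNA from an IP with an antibody to hnRNP U (SAF-A), a nuclear protein that binds RNA and DNA. All 4 groups therefore share the cell line and the thymidine block, the interphase group is a blocked culture and not a cycling one, and mitosis, release and drug cannot be told apart. A control-antibody IP was not analysed here, so RNA bound by hnRNP U and RNA carried over on the beads cannot be told apart. Nothing in the labels says that the 2 libraries of a group came from separate cultures, so p-values measure the spread between these libraries, which may be technical.

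Levels are FPKM, which counts fragments relative to the length of the transcript and the size of the library. All 6 genes listed to check the phase labels (CCNB1, CCNB2, PLK1, AURKA, CDC20 and CENPF) were higher in mitosis without IP, with a summed level of 149 and 158 FPKM in interphase and 560 and 604 FPKM in mitosis. Of 11 retinal pigment epithelium markers, 3 were in the table: MITF lay between 7.06 and 9.60 FPKM and OTX2 between 3.33 and 8.71 FPKM without IP, while PMEL was at or under 0.120 FPKM. RPE65, BEST1, RLBP1, TYR, TYRP1, DCT, SERPINF1 and TTR had no row. Of 6 epithelial markers KRT8, KRT18 and KRT7 were present and KRT19, CDH1 and EPCAM had no row. Of 8 mesenchymal markers 6 were present, from VIM at 1204 FPKM or more without IP down to COL1A1 at 1.06 FPKM or less, and COL1A2 and COL3A1 had no row. None of 5 blood cell markers had a row.

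In interphase without IP, the mean level of the 9 mRNAs ran from 47.5 FPKM for IER3 down through JUN (28.2), MYC (20.5), KLF6 (13.3), IER2 (11.7), JUNB (8.77), ATF3 (0.849), EGR1 (0.715) and FOS (0.309 FPKM). The replicates of neighbours in this order did not overlap, apart from ATF3 and EGR1. IER3 stood above 89.8% of all genes, JUNB above 56.5% and FOS above 7.53%. FOS, EGR1 and ATF3, which are classical immediate early genes, were thus near the bottom of the table in these cells. In mitosis without IP the order was JUN (18.8 FPKM), MYC (13.7), IER3 (8.45), KLF6 (5.06), IER2 (2.66), JUNB (1.01), FOS (0.410), EGR1 (0.310) and ATF3 (0.157 FPKM), and the replicates of FOS and EGR1 overlapped. IER3, the most abundant in interphase, was thus behind JUN and MYC in mitosis.

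**Figure D1:**
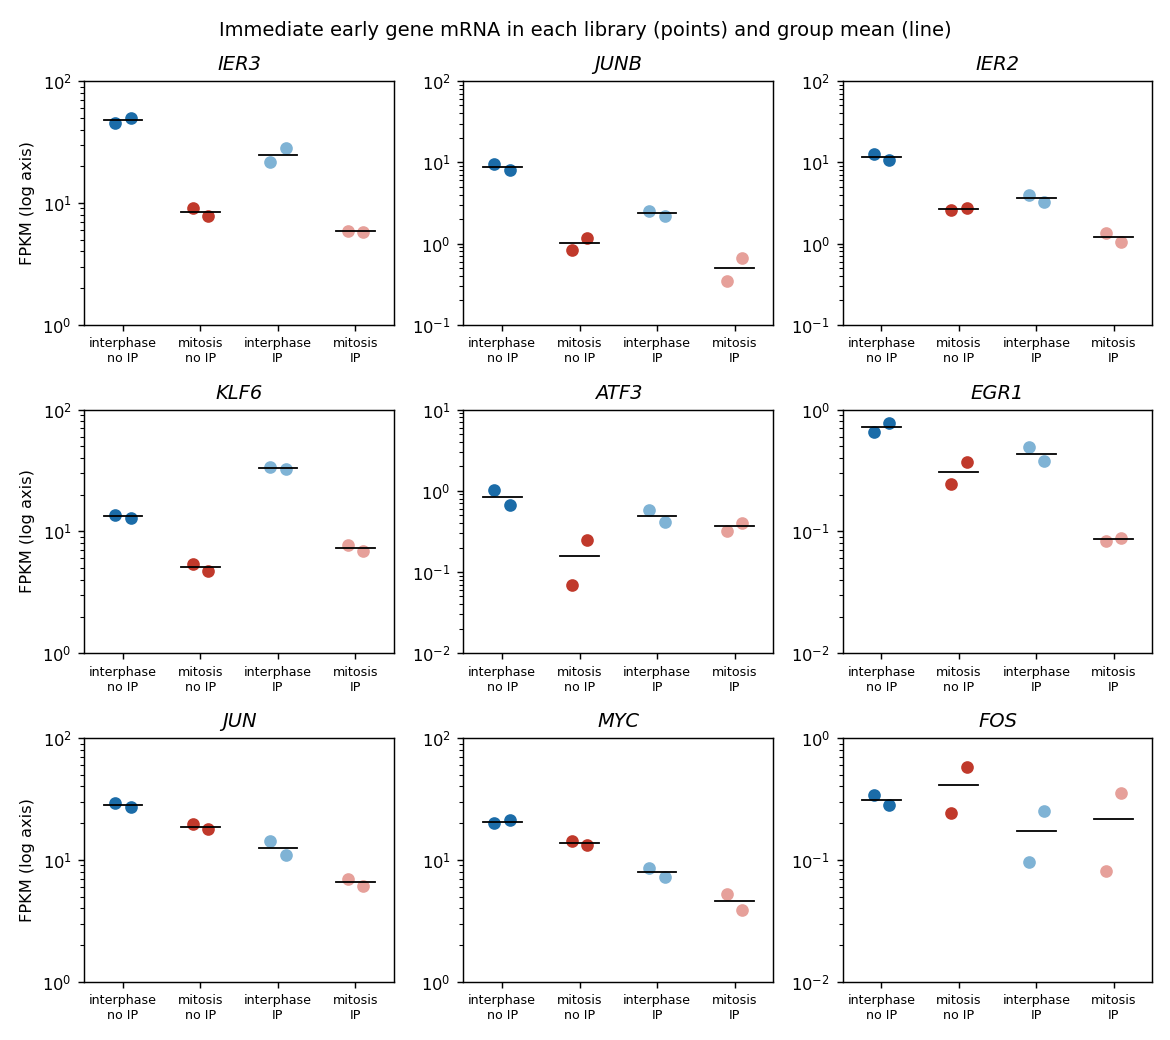
Each panel plots 1 gene's FPKM on a log axis in the 8 libraries (points, 2 for each group) with the group mean (line). IER3, JUNB, IER2 and KLF6 were lower in both mitotic libraries than in both interphase libraries with and without IP, KLF6 alone was higher in the IP than without it in both phases, and the 2 mitotic libraries of FOS lay on either side of its interphase libraries.

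Most of the 9 mRNAs made up a smaller share of the sequenced RNA in mitosis. Without IP, 8 of the 9 mRNAs were lower in mitosis at an adjusted p below 0.05 and none was higher, beside 25.5% of all genes called lower and 26.2% called higher (51.7% in either direction). The exception was FOS, which was also the only one of the 9 whose groups overlapped, and 78.9% of all genes had groups that did not. The median log2 fold change of the 9, on the log2(FPKM + 1) scale used throughout, was -0.67, and that of all genes was -0.0023. In bulk RNA, fewer cells holding a transcript and less of it per cell cannot be told apart. FPKM is also relative to the size of the library, so amounts of RNA per cell were not measured.

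JUN, JUNB and FOS encode subunits of AP-1, a basic leucine zipper dimer that carries growth and stress signals to its target genes. JUNB stood at 9.57 and 7.98 FPKM in interphase and at 0.835 and 1.18 FPKM in mitosis. Both mitotic libraries were far under both interphase libraries, and mean FPKM was 8.69-fold lower (log2 fold change -2.28 ± 0.15 (SE), adjusted p = 1.45e-05). Only 72 of the 13471 genes had a lower value. JUN was at 29.1 and 27.2 FPKM in interphase and at 19.7 and 17.8 FPKM in mitosis. The groups did not overlap, but the fall was small, to 0.666 of the interphase mean FPKM (-0.56 ± 0.14, adjusted p = 0.00811). The call for JUN was lost without interphase replicate 1 (-0.51, adjusted p = 0.0552) or without mitosis replicate 2 (-0.49, adjusted p = 0.0528), both of the libraries without IP. Over the alternatives it ran from -0.68 to -0.49, with adjusted p from 0.00147 to 0.0552.

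FOS was at 0.339 and 0.279 FPKM in interphase and at 0.242 and 0.577 FPKM in mitosis. The mitotic libraries lay on either side of the interphase ones, and the change of 0.10 ± 0.14 was not called (95% interval -0.22 to 0.42, adjusted p = 0.593). FOS rested on few reads. The steps between low FPKM values gave whole fragment numbers of 13 and 9 in interphase and 8 and 24 in mitosis, with exact Poisson 95% intervals of 6.92 to 22.2, 4.12 to 17.1, 3.45 to 15.8 and 15.4 to 35.7 that cover counting error only. The log2(FPKM + 1) scale also understates changes of genes below 1 FPKM. JUNB had 306 and 214 fragments in interphase and 23 and 41 in mitosis by the same reckoning, and JUN had 1023 or more in each library without IP.

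EGR1 and KLF6 are zinc finger transcription factors that bind GC-rich sites. KLF6 was at 13.7 and 12.98 FPKM in interphase and at 5.39 and 4.73 FPKM in mitosis. It fell 2.64-fold (-1.25 ± 0.11, adjusted p = 5.32e-05), and 299 genes had a lower value. Same-numbered libraries gave -1.20 and -1.29, though a pairing of them was not established. EGR1 was at 0.652 and 0.777 FPKM in interphase, 37 fragments in each library, and at 0.246 and 0.374 FPKM in mitosis, 12 and 23 fragments. Its groups did not overlap, and mean FPKM was 2.31-fold lower (-0.39 ± 0.09, adjusted p = 0.00547).

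ATF3 is a stress-induced member of the CREB/ATF family that often represses its targets, and MYC is the growth regulator that pairs with MAX. ATF3 was at 1.03 and 0.667 FPKM in interphase and at 0.0684 and 0.245 FPKM in mitosis. Both mitotic values were under both interphase values, 5.42-fold lower by mean FPKM (-0.67 ± 0.12, adjusted p = 0.00190). The fold rested on single libraries, at 3.47-fold without mitosis replicate 1 and 12.4-fold without mitosis replicate 2. MYC was at 19.9 and 21.0 FPKM in interphase and at 14.2 and 13.2 FPKM in mitosis. Like JUN it fell little, to 0.667 of its interphase mean FPKM (-0.55 ± 0.15, adjusted p = 0.0122). The call for MYC was lost without interphase replicate 2 (-0.51, adjusted p = 0.0702) or mitosis replicate 2 (-0.50, adjusted p = 0.0657), and with the trends of the values with transcript length and GC content removed (-0.33, adjusted p = 0.0724), while its values under the alternatives ran from -0.70 to -0.33, with adjusted p from 0.00314 to 0.0724.

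IER2 and IER3 are immediate early response genes. IER2 encodes a nuclear protein, and IER3 encodes a stress-induced regulator of cell survival. IER3 was at 45.5 and 49.5 FPKM in interphase and at 9.10 and 7.80 FPKM in mitosis. This was the lowest log2 fold change among the 9 genes, -2.36 ± 0.14 (adjusted p = 6.23e-06), with 66 genes lower and mean FPKM 5.62-fold lower. IER2 was at 12.8 and 10.6 FPKM in interphase and at 2.59 and 2.72 FPKM in mitosis, 4.40-fold lower (-1.79 ± 0.14, adjusted p = 3.46e-05), with 133 genes lower. IER3 had 963 and 880 fragments in interphase and 166 and 179 in mitosis, and IER2 had 464 and 323, then 81 and 107. The 9 genes thus spread from an unresolved change in FOS, through small falls in JUN and MYC, to larger ones. JUNB, IER3, ATF3 and IER2 fell more than 4-fold in mean FPKM. With 1 library left out, the fall was as small as 3.47-fold for ATF3 and 3.99-fold for IER2.

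**Figure D2:**
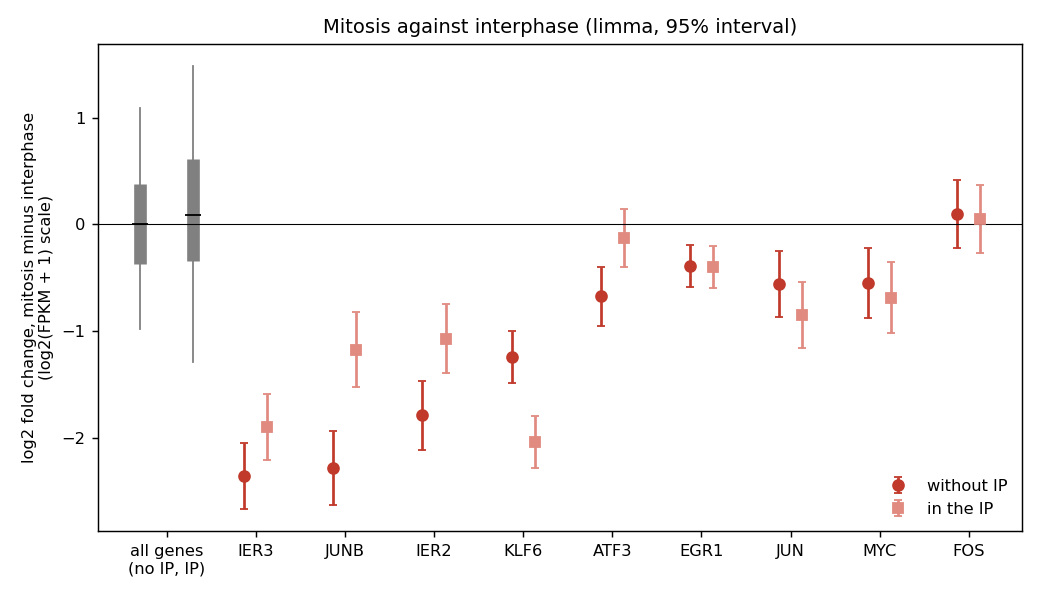
The y axis is the log2 fold change of mitosis minus interphase on the log2(FPKM + 1) scale, for each gene without IP (circles) and in the IP (squares), with 95% intervals from limma. At the left, thick bars span percentiles 25 to 75 of all genes, thin lines percentiles 5 to 95 and dashes the median. Without IP, IER3 (-2.36), JUNB (-2.28) and IER2 (-1.79) were the lowest, and the interval of FOS included 0.

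Genes around the immediate early genes were taken from lists, some of which share genes (FOSB, FOSL1, FOSL2 and JUND, and BTG1 and BTG2, each stand in a pair of lists). Of 44 other immediate early and early response genes, 38 had a row. In mitosis without IP, 23 of the 38 were lower and 3 were higher, with a median of -0.56. JUND, also a JUN family subunit of AP-1, went from 64.3 and 59.3 FPKM to 6.99 and 6.06 FPKM (-3.06 ± 0.11, adjusted p = 4.04e-07). IER5L, a relative of IER2, went from 15.1 and 14.8 to 0.977 and 1.15 FPKM (-2.95 ± 0.16), and TRIB1, a pseudokinase, changed by -2.55 ± 0.19. The 3 that were higher were FOSL1 (0.66 ± 0.12), another FOS family subunit, the cyclin gene CCND1 (0.47 ± 0.14) and FOSB (0.21 ± 0.08), which stayed at or under 0.296 FPKM in each library without IP. EGR2, EGR4, NR4A2, NR4A3, KLF4 and ARC had no row.

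Of 17 feedback regulators of growth factor and stress signalling, 10 were lower in mitosis without IP and 2 were higher (median -0.50). NFKBIA, the inhibitor of NF-kappaB, went from 14.3 and 14.2 to 0.851 and 1.39 FPKM (-2.86 ± 0.16). The MAP kinase phosphatase DUSP1 changed by -2.32 ± 0.20 and the ERK phosphatase DUSP6 by -1.69 ± 0.21. TNFAIP3 (0.63 ± 0.16) and SPRY4 (0.39 ± 0.10) were the ones that were higher.

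Counts for the remaining lists are given side by side, and differences between lists were not tested. Of 18 upstream transcription factors and kinases, 3 were higher and 2 lower (median 0.07), among them the JNK kinase gene MAPK8, higher by 1.02 ± 0.10, and the MEK gene MAP2K2, lower by -0.97 ± 0.10. Of 17 dimer partners of AP-1 and MYC, 4 were higher and 8 lower (median -0.17), with the MAX partners MXI1 at -2.26 ± 0.15 and MXD4 at -2.22 ± 0.12. Of 24 factors in the decay of AU-rich mRNAs, 12 were higher and 6 lower (median 0.32). The deadenylase scaffold CNOT1 (1.48 ± 0.11), the decapping enzyme DCP2 (1.03 ± 0.12) and the exonuclease XRN1 (0.96 ± 0.11) were higher, while ZFP36L1 (-2.15 ± 0.10) and ZFP36L2 (-1.57 ± 0.17), which bind AU-rich elements and are themselves early response genes in many cells, and BTG2 (-1.08 ± 0.14) were lower. In a comparison list, 16 glycolytic enzyme genes with a row had 2 higher and 5 lower (median -0.30). They ran from HK2 at 0.50 ± 0.14 to ALDOA at -0.97 ± 0.16.

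The AU-rich pentamer ATTTA is the core of elements that shorten the life of many immediate early mRNAs, and its number differed widely among the 9 genes. In the GENCODE 29 transcript used for each gene, the 3′ UTR held 6 copies in IER3 and in KLF6, 5 in FOS, 4 in MYC, 3 in JUN and in ATF3, 2 in JUNB, 1 in EGR1 and none in IER2. Per kilobase this was 8.40 in MYC, 8.14 in IER3, 6.20 in FOS, 4 in JUNB, 2.46 in ATF3, 2.33 in JUN, 1.69 in KLF6 and 0.810 in EGR1. The median of 11907 genes with a 3′ UTR was 1.64, and 69.4% had a copy. Beside these densities, mean FPKM in mitosis without IP was lower by 5.62-fold for IER3, 8.69-fold for JUNB and 5.42-fold for ATF3. It was lower by 2.64-fold for KLF6, 2.31-fold for EGR1 and 4.40-fold for IER2, which has no copy. MYC was at 0.667 and JUN at 0.666 of the interphase level, while FOS was not called. A relation between density and fall was not tested. FOS alone of the 9 held the longer form TTATTTATT, which 8.31% of genes had. The windows below hold the 30 bases of the 3′ UTR with the most copies of ATTTA, the first such window where several tied. They are from FOS and from IER3, JUNB and KLF6, which were called lower in mitosis. The FOS window does not hold the whole longer form, and the JUNB window holds 1 of its 2 copies of ATTTA. They are written as DNA 5′ to 3′ with ATTTA in capitals, and overlapping copies share bases.
FOS: aaacgttttattgtgtttttaATTTATTTA
IER3: ttgctcctaattaatATTTAtatgtATTTA
JUNB: catattgaatataatatatttgtgtATTTA
KLF6: gtgtATTTAcaaatataacacaacaATTTA

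The promoters were searched for listed motifs as a description of the genes, whatever their change in mitosis. RefSeq promoter windows on GRCh38.p14 were at hand for 7 of the 9 genes, with 2 for ATF3, and the 250 bases before the start were searched on both strands. TGACG, the core of the cAMP response element TGACGTCA, stood in FOS, JUN, JUNB, EGR1 and IER2, 5 of 7 genes, beside 21.2% of 35116 windows of the same length. The full TGACGTCA (1.65% of windows) and the AP-1 site TGANTCA (6.57%) stood in none of the 7. TATAAA stood in FOS, JUNB and the second window of ATF3 (10.7% of windows), GGGCGG in 5 of 7 (42.6%) and CCAAT in 4 of 7 (32.0%). The CArG box, which serum response factor binds, stood at 2 places in EGR1 and in none of the other 6, beside 1.16% of windows. A box farther upstream than the bases searched would not have been seen. FOS, not called in mitosis, and JUNB, lower by 8.69-fold, both had a TATAAA close to the start, at -33 to -28 and at -31 to -26. The windows of FOS, JUNB and EGR1 are printed 5′ to 3′ on the gene's strand, with TATAAA (FOS, JUNB) or the CArG boxes (EGR1) in capitals. They span chr14:75278578-75278827, chr19:12791236-12791485 and chr5:138465229-138465478, all on the plus strand. A match says only that the letters are present.
FOS: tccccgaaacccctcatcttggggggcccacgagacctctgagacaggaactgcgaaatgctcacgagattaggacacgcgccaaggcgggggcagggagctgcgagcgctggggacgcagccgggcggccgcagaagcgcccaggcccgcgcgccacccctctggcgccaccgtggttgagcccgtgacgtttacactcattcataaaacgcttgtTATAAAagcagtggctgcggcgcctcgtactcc
JUNB: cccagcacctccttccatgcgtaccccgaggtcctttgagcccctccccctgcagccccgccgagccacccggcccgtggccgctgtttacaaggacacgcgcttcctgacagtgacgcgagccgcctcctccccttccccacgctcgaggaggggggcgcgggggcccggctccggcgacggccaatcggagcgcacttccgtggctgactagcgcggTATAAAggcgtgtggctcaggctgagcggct
EGR1: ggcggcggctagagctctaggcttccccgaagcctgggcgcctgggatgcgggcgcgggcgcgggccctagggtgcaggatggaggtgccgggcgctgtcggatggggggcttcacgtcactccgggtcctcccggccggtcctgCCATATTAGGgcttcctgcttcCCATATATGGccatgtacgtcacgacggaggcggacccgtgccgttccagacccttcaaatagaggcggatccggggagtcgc

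In the hnRNP U IP, 7 of the 9 mRNAs were lower in mitosis than in interphase and none was higher, beside 25.6% of all genes lower and 35.8% higher (61.4% in either direction). The median of the 9 was -0.85, and that of all genes was 0.08. These 7 calls held whichever library was left out. KLF6 had the lowest log2 fold change, from 33.8 and 32.6 FPKM to 7.72 and 6.92 FPKM (-2.04 ± 0.11, adjusted p = 2.09e-06), with 147 genes lower. IER3 went from 21.6 and 28.0 to 5.92 and 5.76 FPKM (-1.90 ± 0.14, adjusted p = 7.14e-06). JUNB went from 2.55 and 2.20 to 0.343 and 0.658 FPKM (-1.18 ± 0.15, adjusted p = 0.000192). The order depends on the scale: by mean FPKM EGR1 (5.04-fold) and JUNB (4.75-fold) were lower by more than KLF6 (4.54-fold), and with length and GC trends removed IER3 had the lowest log2 fold change (-2.41).

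IER2 in the IP went from 3.98 and 3.24 to 1.34 and 1.04 FPKM (-1.07 ± 0.14, adjusted p = 0.000216). JUN went from 14.3 and 11.0 to 6.97 and 6.09 FPKM (-0.85 ± 0.14, adjusted p = 0.000636), and MYC from 8.65 and 7.22 to 5.29 and 3.86 FPKM (-0.69 ± 0.15, adjusted p = 0.00304). EGR1 went from 0.490 and 0.376 to 0.0828 and 0.0890 FPKM, which was 30 and 20 fragments against 3 and 6 (-0.40 ± 0.09, adjusted p = 0.00346). Both mitotic libraries were lower than both interphase libraries for 8 of the 9 genes, ATF3 included and FOS not, and 79.2% of all genes had groups that did not overlap. FOS, with 4 and 9 fragments in interphase and 2 and 16 in mitosis, was at 0.0965 and 0.250 then 0.0816 and 0.351 FPKM (0.05 ± 0.14, adjusted p = 0.797), and ATF3 was at 0.576 and 0.409 then 0.323 and 0.405 FPKM (-0.13 ± 0.12, adjusted p = 0.384). Neither was called. After each library was rescaled without the 10 most abundant genes, the split over all genes was 3260 higher and 4593 lower, against 4817 and 3452 as deposited, and the members' calls in this comparison were the same genes in the same direction.

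In interphase, 7 of the 9 mRNAs were lower in the hnRNP U IP than without it and KLF6 was higher, as deposited, beside 37% of all genes lower and 37.6% higher (74.6% in either direction). The median of the 9 was -0.92, and that of all genes was 0.02. KLF6 went from 13.7 and 12.98 FPKM without IP to 33.8 and 32.6 FPKM in the IP. Both IP libraries were about alike and far above both libraries without IP, 2.49-fold by mean FPKM (1.25 ± 0.11, adjusted p = 7.82e-06), and KLF6 became the most abundant of the 9 mRNAs in the interphase IP.

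Among the genes that were lower in the interphase IP, JUNB went from 9.57 and 7.98 to 2.55 and 2.20 FPKM, 3.69-fold (-1.53 ± 0.15, adjusted p = 2.00e-05), and IER2 from 12.8 and 10.6 to 3.98 and 3.24 FPKM, 3.24-fold (-1.46 ± 0.14, adjusted p = 1.71e-05). MYC was 2.58-fold lower (-1.27 ± 0.15, adjusted p = 4.54e-05), JUN 2.23-fold (-1.11 ± 0.14, adjusted p = 6.97e-05) and IER3 1.92-fold (-0.92 ± 0.14, adjusted p = 0.000234). The groups of all 9 genes did not overlap in this comparison, FOS included, as for 87.3% of all genes. EGR1 (-0.26 ± 0.09, adjusted p = 0.0223) and ATF3 (-0.30 ± 0.12, adjusted p = 0.0461) passed narrowly, and FOS did not (-0.16 ± 0.14, adjusted p = 0.324). The call for EGR1 was lost with a pseudocount of 0.1 (adjusted p = 0.0600), quantile normalization (0.0945), median centring (0.201) and rescaling without the 10 most abundant genes (0.479). It was also lost without interphase no IP replicate 2 (-0.21) or interphase IP replicate 2 (-0.20), and that for ATF3 without any of 5 libraries (-0.39 to -0.16, adjusted p up to 0.293): interphase no IP replicate 1, interphase IP replicates 1 and 2, and mitosis IP replicates 1 and 2. ATF3 was also not called with a pseudocount of 0.1 (adjusted p = 0.133), quantile normalization (0.156), median centring (0.189) or rescaling (0.461). With the replicate number as a block, ATF3 had an adjusted p of 0.0501 (0.0152 to 0.776 over the alternatives).

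In mitosis, 6 of the 9 were lower in the IP than without it and KLF6 was again higher, beside 31.7% of all genes lower and 32.8% higher (64.5% in either direction). The median was -0.42, and that of all genes was 0.01. MYC went from 14.2 and 13.2 to 5.29 and 3.86 FPKM (-1.41 ± 0.15, adjusted p = 4.77e-05) and JUN from 19.7 and 17.8 to 6.97 and 6.09 FPKM (-1.39 ± 0.14, adjusted p = 3.55e-05). These were the lowest log2 fold changes, 2.98-fold and 2.87-fold by mean FPKM, by which EGR1 was 3.61-fold lower. IER2 went from 2.59 and 2.72 to 1.34 and 1.04 FPKM (-0.74 ± 0.14, adjusted p = 0.00165), and KLF6 rose from 5.39 and 4.73 to 7.72 and 6.92 FPKM (0.46 ± 0.11, adjusted p = 0.00493).

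The other calls in the mitotic IP were weaker. IER3 changed by -0.46 ± 0.14 (adjusted p = 0.0149), JUNB by -0.42 ± 0.15 (adjusted p = 0.0369) and EGR1 by -0.27 ± 0.09 (adjusted p = 0.0224). IER3 was not called without mitosis no IP replicate 1 (-0.36) or mitosis IP replicate 2 (-0.45), JUNB without mitosis no IP replicate 2 (-0.30) or mitosis IP replicate 1 (-0.27), and EGR1 without mitosis no IP replicate 2 (-0.20) or either mitosis IP replicate (-0.26 and -0.27). Mitosis IP replicate 1 was the shallowest library, at 0.639 of the depth of interphase no IP replicate 1, and mitosis IP replicate 2 the deepest at 1.19, and in it JUNB had 25 fragments against 7 in replicate 1. ATF3 (0.24 ± 0.12, adjusted p = 0.111) and FOS (-0.21 ± 0.14, adjusted p = 0.217) did not pass. The groups of ATF3 did not overlap, as for 81.5% of all genes, and its mean FPKM was 2.32-fold higher in the IP. That fold ran from 1.49 to 5.32 with 1 library left out. The lowest adjusted p of ATF3 over the alternatives was 0.0302. Rescaling without the 10 most abundant genes moved the median of all genes by the IP to 0.31 in interphase and 0.17 in mitosis, where the splits over all genes became 6593 higher and 3609 lower (5068 and 4983 as deposited) and 5421 and 2866 (4425 and 4269 as deposited). Under it KLF6 was still higher in both phases, and 3 members, JUN, MYC and IER2, were called lower in mitosis.

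**Figure D3:**
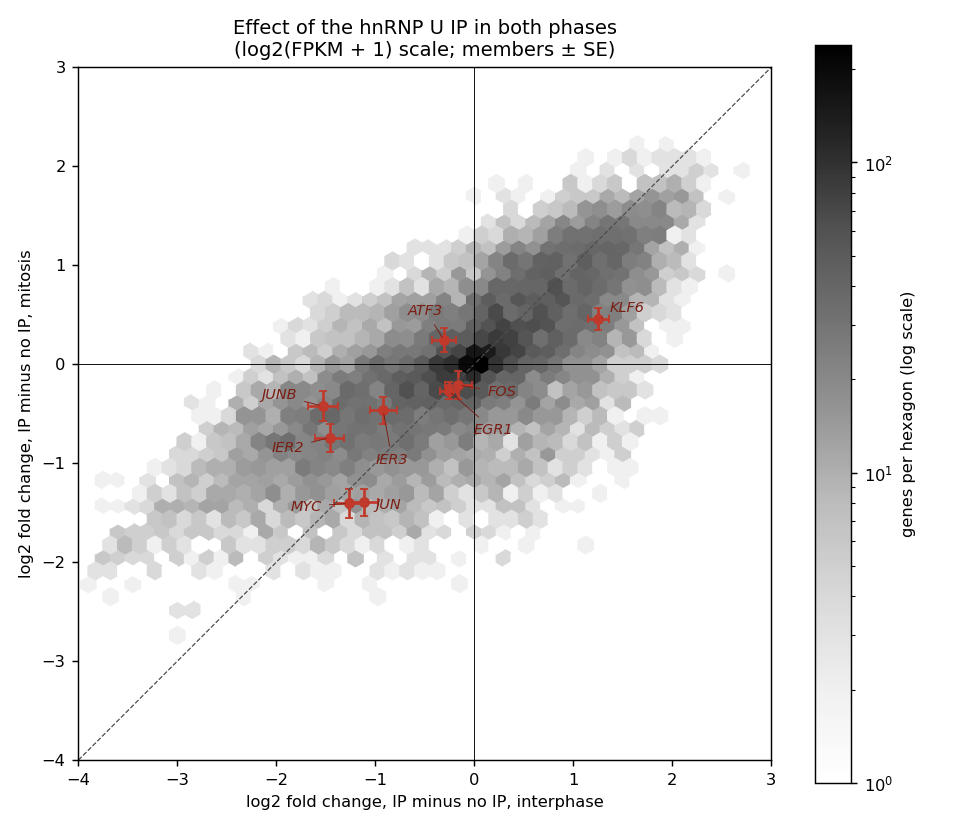
The x axis is the log2 fold change of IP minus no IP in interphase and the y axis the same in mitosis, both on the log2(FPKM + 1) scale, for the 9 genes (points with SE) over the density of all genes (grey hexagons, log scale), with equal effects on the dashed line; 21 of 13471 genes lie outside the axes. KLF6 is at 1.25 and 0.46, JUNB at -1.53 and -0.42, and JUN and MYC are close together near the dashed line.

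Transcript length and GC content moved with the effect of the IP over all genes. In quintiles of all genes, the interphase median was -0.98 for the shortest transcripts and 0.79 for the longest, and it was 1.00 for those poorest in GC and -1.15 for the richest. In mitosis the same medians were -0.31 and 0.25, then 0.63 and -0.58. JUNB and IER3 were in the shortest quintile, JUNB, IER2 and IER3 were in the richest one, and KLF6, with 4656 bases, was the only one of the 9 longer than the median of 3614 bases. When these trends were removed from each library, 4 of the 9 were called higher in the interphase IP (KLF6, IER3, FOS and EGR1) and 1 lower (JUN). Of the 13153 genes with length and GC content, 4448 were higher and 3656 lower. KLF6 was then at 0.82, IER3 at 0.81, FOS at 0.76, EGR1 at 0.53, JUNB at 0.17 and JUN at -0.34. In mitosis JUN and MYC were the 2 calls that remained, at -0.96 and -1.03, beside 4443 of the 13153 genes higher and 3792 lower. The trend is set by all genes and is subtracted in full from genes near 0 FPKM such as FOS, EGR1 and ATF3. JUN thus kept its call as lower in the IP in both phases, MYC kept it in mitosis and KLF6 kept its call as higher in interphase. MYC in interphase (-0.32, adjusted p = 0.0687), IER2 in both phases (-0.27, adjusted p = 0.0782, and -0.13, adjusted p = 0.393) and KLF6 in mitosis (0.24, adjusted p = 0.0689) kept their direction and lost their calls.

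**Figure D4:**
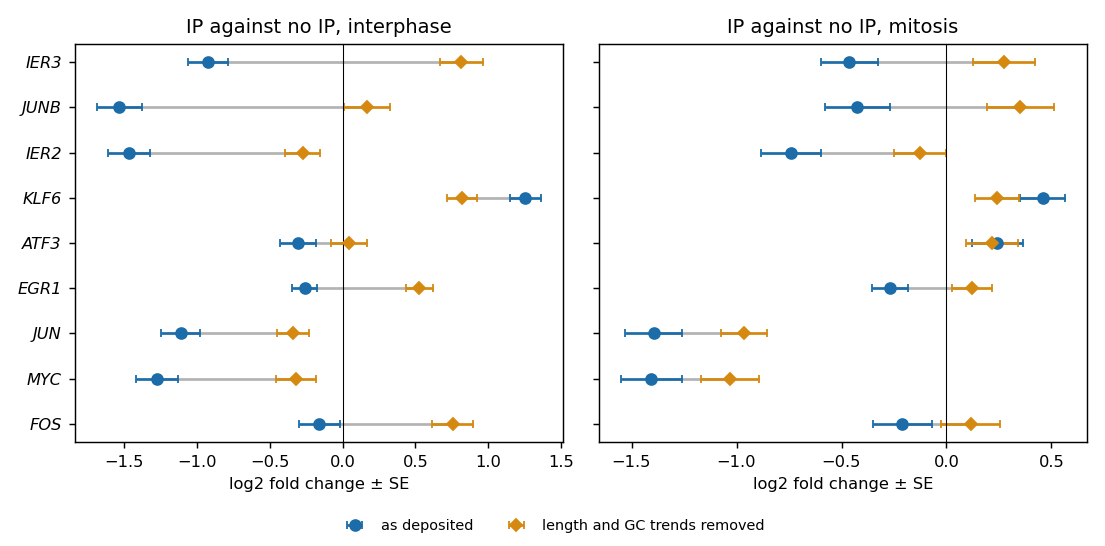
The x axis is the log2 fold change of IP minus no IP with its SE, in interphase (left) and in mitosis (right), as deposited (blue circles) and with the trends of each library's values with transcript length and GC content removed (orange diamonds). In interphase IER3 moved from -0.92 to 0.81 and JUNB from -1.53 to 0.17, while JUN and MYC in mitosis stayed at or below -0.96.

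The effect of the IP differed between the phases for 4 of the 9 genes by a test of the difference itself (mitosis minus interphase), 3 higher and 1 lower, beside 27.2% of all genes higher and 19.9% lower (47.1% in either direction). The median was -0.01, and that of all genes was 0.07. JUNB was lowered by 1.53 in the interphase IP and by 0.42 in the mitotic IP on the log2 scale, a difference of 1.11 ± 0.22 (adjusted p = 0.00330). KLF6 was raised in both phases, by 1.25 and 0.46, a difference of -0.80 ± 0.15 (adjusted p = 0.00291). These values went opposite ways, JUNB less depleted and KLF6 less enriched in mitosis. IER2 (0.72 ± 0.20, adjusted p = 0.0180) and ATF3 (0.55 ± 0.17, adjusted p = 0.0286) differed in the same direction as JUNB. IER2 was also less depleted in mitosis (-1.46 in interphase, -0.74 in mitosis). ATF3 was at -0.30 in interphase and at 0.24, not called, in mitosis.

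IER3 had a difference of 0.46 ± 0.19 that did not pass (adjusted p = 0.0806). For JUN it was -0.28 (95% interval -0.72 to 0.15), for MYC -0.14 (-0.60 to 0.33), for EGR1 -0.01 (-0.29 to 0.27) and for FOS -0.05 (-0.50 to 0.40). With length and GC trends removed, these 4 were called lower: JUN at -0.63 (adjusted p = 0.0114), MYC at -0.71 (0.0172), FOS at -0.64 (0.0284) and EGR1 at -0.41 (0.0348). Of 13153 genes in that setting, 2930 were called higher and 2736 lower. Over the alternatives the adjusted p ran from 0.00513 to 0.636 for JUN, 0.0112 to 0.951 for MYC, 0.00868 to 0.959 for FOS and 0.0244 to 0.980 for EGR1. Without interphase no IP replicate 1, or without mitosis no IP replicate 1, the calls were JUNB and KLF6 only. IER2 lost its call without either of these or without interphase IP replicate 2 or mitosis IP replicate 1 (0.60 to 0.69, adjusted p up to 0.0715), and ATF3 without interphase no IP replicate 1, mitosis no IP replicate 1, interphase IP replicate 2 or mitosis IP replicate 2 (0.40 to 0.50, adjusted p up to 0.0978). IER3 gained one without interphase IP replicate 2 (0.64, adjusted p = 0.0205). With a pseudocount of 0.1 FPKM in place of 1, JUNB (0.92, adjusted p = 0.0926) and IER2 (0.57, adjusted p = 0.116) were not called, and with length and GC trends removed JUNB was at 0.18 (adjusted p = 0.532). Over the alternatives the adjusted p of JUNB ran from 0.00233 to 0.532, while KLF6 kept its call under each alternative that was run (-1.02 to -0.58, adjusted p from 0.00124 to 0.0152). Rescaled without the 10 most abundant genes, the split over all genes was 2704 higher and 3142 lower, against 3662 and 2677 as deposited.

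Profiles over the 8 libraries were compared by the root mean square (RMS) difference of log2(FPKM + 1) values, each centred on its own mean, which is a description of 8 points that share depth and scaling. Among the 9 genes JUN and MYC were the most alike, 0.10 apart, and JUNB and IER2 were 0.23 apart. Both pairs show in the levels. JUN and MYC fell mildly in mitosis and strongly in the IP. JUNB and IER2 fell strongly in mitosis without IP and in the interphase IP, and less in the mitotic IP (-0.42 and -0.74). KLF6 was far from all, at least 0.84 from each other gene. EGR1 and ATF3 were 0.21 apart, but both varied little on this scale because they were at or near 1 FPKM or below.

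Over the 11265 other genes with a mean of at least 1 FPKM, the nearest to KLF6 were STK38L (RMS 0.11; 13.98, 5.35, 40.2 and 7.87 FPKM in interphase, mitosis, interphase IP and mitotic IP) and YPEL2 (0.11). The nearest to JUN were ABR (0.11) and SNORA43 (0.11), a small nucleolar RNA gene, and to MYC RXRA (0.10) and KIF1C (0.11). For JUNB, IER2 and IER3 the nearest genes were less near. JUNB was nearest to WBP5 (0.16) and IFITM10 (0.23), IER2 to CPA4 (0.19) and TBC1D17 (0.20), and IER3 to TSC22D3 (0.19; 14.5, 2.31, 9.20 and 1.96 FPKM in the same order) and FZD8 (0.25). The flat profiles of FOS, EGR1 and ATF3 lay nearest to PRPF4 and DENND1A, to NDUFAF4 and DLX1, and to GPNMB and PTX3, at 0.07 to 0.09.

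All 9 genes are protein-coding, and none shares its deposited interval with another gene in the table. On GRCh38 (GENCODE 29), FOS is at chr14:75278774-75282230 and EGR1 at chr5:138465490-138469315, both on the plus strand, and JUN at chr1:58780788-58784327 on the minus strand. JUNB (chr19:12791496-12793315) and IER2 (chr19:13150415-13154908) lie on the plus strand of the same chromosome. IER3 (chr6:30743199-30744554) and KLF6 (chr10:3775996-3785281) are on the minus strand, ATF3 (chr1:212565334-212620777) is on the plus strand, and MYC is on chromosome 8. The genes are compact: the longest transcripts of JUN, JUNB, IER2 and IER3 have 1 exon, and the span of 8 genes is 9286 bases or less, while ATF3 spans 55444 bases. The IER3 transcript used for its 3′ UTR is shorter, at 1244 bases, and has 2 exons. GC content of the longest transcript ran from 45.9% in KLF6 and 46.7% in ATF3 to 61.7% in IER2 and 64.9% in JUNB, beside a median of 47.6% over all genes, so 7 of the 9 were above the median.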

How the data were processed

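The authors deposited a gene table of FPKM values for 8 RNA libraries, with no further scaling stated, per the file headers. The submitters' processing notes name TopHat and StringTie without versions or roles, and builds hg38 and hg19. The way shared reads were counted is not given in the sources used here. A lncRNA table without gene names was not used.

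The 9 genes and the lists were chosen with earlier results of these data known. Values were fitted on log2(FPKM + 1) with limma 3.58.1 in R 4.3.3 (lmFit, eBayes with trend), with 1 coefficient for each of 4 groups, all 8 libraries and 4 residual degrees of freedom. P-values are two-sided and adjusted by Benjamini-Hochberg over 13471 genes within each of 5 comparisons; values under 0.05 were called. The test was checked on simulated data. All 9 genes were named, with up to 3 called genes in each direction from each other list. The alternatives were a pseudocount of 0.1, a filter at a mean of 1 FPKM, quantile normalization, median centring, rescaling without the 10 highest genes, removal of length and GC trends, a replicate block, only the groups compared, and each library left out in turn.

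Depth is not given, but low FPKM values fall on steps of whole fragments. For 7 of the 9 genes (not KLF6 and ATF3) all 8 values were whole multiples of 1 step, within 0.05 fragments. Relative depth was 0.639 to 1.19 of interphase no IP replicate 1. Symbols matched GENCODE 29 for 12678 genes, and 475 more by an older symbol, so 97.6% had length and GC content.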

Additional observations from a re-analysis of the deposited data

Results flagged for a closer look

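For 4 genes the effect of the hnRNP U IP differed between mitosis and interphase by limma's test of the difference (mitosis minus interphase, log2 scale, adjusted p below 0.05, 2 libraries in each group). For JUNB the difference was 1.11 (95% interval 0.61 to 1.60) and for KLF6 it was -0.80 (-1.14 to -0.45). For IER2 it was 0.72 (0.26 to 1.18) and for ATF3 0.55 (0.16 to 0.93). In each of the 4 genes both sets of same-numbered libraries lay on the same side, but a pairing of these libraries was not established. Of all genes, 47.1% passed the same test. With length and GC trends removed the values were 0.18 for JUNB, 0.15 for IER2, 0.17 for ATF3 and -0.58 for KLF6, of which KLF6 alone was called.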

How the results depend on the processing

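In mitosis without IP 8 of 9 genes were called, with 6 to 9 under the alternatives; the 9 came with the replicate block and length and GC trends removed, where FOS was called higher (0.35, adjusted p = 0.0202). In the IP 7 were called, with 6 to 8. Leaving out 1 library gave 6 to 8 and 7. For the IP in interphase, 8 calls became 5 with length and GC trends removed. For the IP in mitosis, 7 became 4 on rescaling without the 10 highest genes, 2 with length and GC trends removed, and 3 with these removed in a fit with the replicate block. The 4 differences between phases became 2 with a pseudocount of 0.1, 2 on rescaling, and 2 to 4 with 1 library left out. They were 3 higher and 1 lower as deposited, 0 higher and 5 lower with length and GC trends removed, and 4 higher and 1 lower with quantile normalization. Genes changed sign mainly with length and GC trends removed, where the values were the same with and without the replicate block. In the mitotic against the interphase IP FOS was then at -0.29. In the IP against no IP in interphase FOS was at 0.76, JUNB at 0.17, EGR1 at 0.53, IER3 at 0.81 and ATF3 at 0.043, and in mitosis FOS was at 0.11, JUNB at 0.35, EGR1 at 0.12 and IER3 at 0.27. The difference for IER3 was -0.54. With median centring FOS in the mitotic against the interphase IP was at -0.063. The cause was not tested. With 1 library left out, FOS ran from -0.075 to 0.27 in mitosis without IP, from -0.11 to 0.21 in the IP and from -0.22 to 0.12 in the difference, EGR1 from -0.0805 to 0.061 and MYC from -0.32 to 0.051 in the difference, none of them called. The lone library left in a group is then assumed to vary like the others. Same-numbered libraries of different groups had correlated deviations over genes of 0.088 to 0.528, with 1 of the 6 pairs of groups under 0.1, and the labels tie the numbers to no shared batch, so a pairing was not established. The replicate block gave 8, 7, 7, 7 and 4 calls, against 8, 7, 8, 7 and 4. Only ATF3 in the interphase IP was lost. The filter at 1 FPKM left out FOS, EGR1 and ATF3. Depth limits these 3: the smallest fragment numbers were 2 for FOS and 3 for EGR1.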
